A study of Danio rerio with 8 samples.

Results

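Neurotransmitter receptor genes encode the subunits of ion channels that open when glutamate, GABA, glycine or acetylcholine binds. They were taken here as every gene whose symbol begins with gabr (GABA-A receptors), gria (AMPA receptors), grid (delta receptors), grik (kainate receptors), grin (NMDA receptors), chrn (nicotinic acetylcholine receptors) or glr (glycine receptors), each followed by a subunit letter or number. The rule found 80 of the 25725 genes listed: 22 GABA-A, 22 nicotinic, 11 NMDA, 8 AMPA, 7 glycine, 5 kainate and 5 delta genes. Of the 5 delta genes, grid2ipa and grid2ipb encode proteins that interact with a delta receptor and are not channel subunits, so 78 members were receptor subunits. All 80 identifiers carry the same symbol in a RefSeq gene table of a later zebrafish assembly, from which no coordinates were taken.

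The RNA came from 8 samples of zebrafish (Danio rerio) at 5 days postfertilization whose tissue is labelled heart. In the control group, labelled Ctrl and called DMSO here, 4 samples came from embryos kept in the solvent DMSO. In the other group 4 samples came from embryos exposed to TCDD, a chlorinated dioxin that activates the aryl hydrocarbon receptor. Both exposures began at 2 hours postfertilization. No source used here gives the strain, genotype, TCDD concentration, the number of larvae in a sample or their clutches. The p values therefore measure only how these 8 samples scatter, which may be technical.

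Fast excitation in the vertebrate brain is carried mainly by AMPA, kainate and NMDA receptors, tetramers of glutamate-gated subunits. Fast inhibition is carried by GABA-A and glycine receptors, pentamers that conduct chloride. Nicotinic receptors are related pentamers that conduct cations. A muscle form with alpha, beta, delta and either gamma or epsilon subunits receives the motor nerve's signal, and neuronal forms serve the brain and the autonomic ganglia, through which the vagus nerve also reaches the heart. Working heart muscle is not known as a main site of the glutamate, GABA or glycine channels.

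The total estimated count per library was 14048563 to 15183023. A count of 3, the smallest taken as detected, was 0.198 to 0.214 CPM (library counts rescaled to a fixed total) before any further scaling. CPM of genes and their sums below were scaled by TMM factors, so that floor is not on their scale. The factor was 0.825 in DMSO 1 and 0.972 to 1.09 in the other libraries. Levels of different genes are compared only on the authors' TPM, which is scaled for transcript length. The labelled exposure showed in cyp1a, the most used marker of aryl hydrocarbon receptor activation in fish, which was at 101 to 164 CPM in DMSO and 6173 to 9744 CPM in TCDD. The labelled tissue was checked with marker lists, none of whose members was at 0 in all 8 libraries. The cardiomyocyte list of 11 genes summed to 1053 to 1615 TPM per library. Skeletal muscle markers (18 genes) summed to 11640 to 18750 TPM, more than the cardiomyocyte list in every library, neuron markers (21 genes) to 392 to 1265 TPM, glia and myelin markers (11 genes) to 419 to 1007 TPM and retina markers (11 genes) to 31.0 to 1365 TPM. The receptor values below are therefore values of the sampled material and not of heart cells alone.

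Receptor transcripts were a small part of every library. The 80 members held 0.0351% of the counts in DMSO 1, 0.082% in DMSO 2, 0.0568% in DMSO 3 and 0.0646% in DMSO 4. In TCDD 1 to 4 they held 0.0709, 0.0613, 0.0698 and 0.0848%. DMSO 1 was lowest and TCDD 4 highest, and the groups overlapped. A mean TPM of at least 1 over the 8 libraries was reached by 41 members and one of at least 5 by 15. Under 3 counts in at least 1 library were found for 12 members.

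The highest members encode subunits of the muscle nicotinic, NMDA and glycine receptors. The muscle nicotinic subunit gene chrna1, which carries the main acetylcholine binding site at the neuromuscular junction, had a mean of 21.5 ± 4.04 TPM (SD, n = 8 libraries of both groups). The NMDA subunit gene grin1b, 1 of 2 zebrafish copies of the gene for the obligatory glycine-binding subunit, had 21.4 ± 8.03 TPM. These 2 levels could not be ordered, since chrna1 was the higher in 4 of 8 libraries. Next came glrbb, which encodes the beta subunit that anchors glycine receptors at synapses, with 16.95 ± 5.02 TPM, below grin1b in 8 of 8 libraries.

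The second copy grin1a followed with 14.6 ± 5.15 TPM, below glrbb in 8 of 8 libraries, and could not be ordered against chrng, the muscle gamma subunit gene (13.9 ± 4.12 TPM), which it exceeded in 4 of 8. The AMPA subunit genes gria2a (11.03 ± 4.37 TPM) and gria2b (8.96 ± 3.625 TPM) were next by mean. Here chrng exceeded gria2a in 6 of 8 libraries, and gria2a exceeded gria2b in 8 of 8. Both gria2a and gria2b encode the subunit that makes AMPA receptors nearly impermeable to calcium when its RNA is edited. Reads of such a and b copies can be assigned to the wrong copy, and no source used here states the assignment rule.

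**Figure D1:**
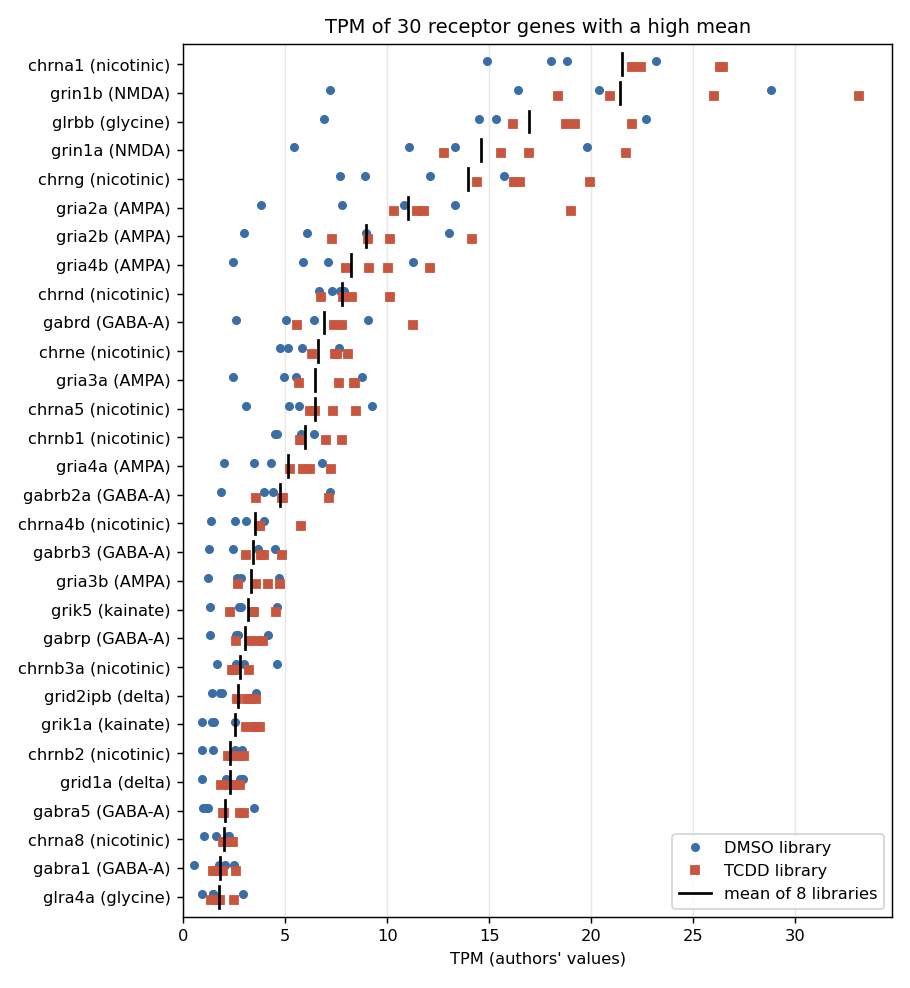
TPM as deposited (horizontal axis) of 30 member genes with a high mean, with the family in brackets (1 gene of that range is not drawn). Circles are the 4 DMSO libraries, squares the 4 TCDD libraries and vertical bars the mean of all 8, and chrna1 (21.5 TPM) and grin1b (21.4 TPM) lead the order.

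The families differed in how much of their level came from a few subunits. Among the 11 NMDA genes grin1b held 49.9% and grin1a 34.3% of the family's summed TPM, as means over the 8 libraries. The 6 GluN2 genes, which encode the glutamate-binding partners, together had 0.124 to 0.177 of the summed TPM of grin1a and grin1b in each library. Among the 7 glycine receptor genes glrbb held 74.4%, and the alpha subunit gene glra4a came second with 7.86%. Beside its own copy glrba, glrbb was 13.2 to 28.8 times as high within a library.

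The 22 GABA-A genes were led by gabrd, which encodes the delta subunit of receptors outside synapses, with 24.2% of the family's TPM, and by gabrb2a, a beta subunit gene, with 16.7%. The gamma subunit genes gabrg1 and gabrg3, whose products take part in GABA-A receptors, were below the count filter. Among the 8 AMPA genes gria2a held 24.5% and gria2b 19.8%. In the kainate family grik5, a high-affinity partner subunit gene, held 37.3% and grik1a, which encodes a subunit that can form channels by itself, held 29.4%. Among the 3 delta receptor genes, which act in synapse formation, grid1a held 40.6%. In the nicotinic family chrna1 held 27.0% and chrng 17.2%. The 5 muscle receptor genes summed to 40.7 to 71.0 TPM per library and the whole family to 52.9 to 96.45 TPM. The family's level was thus mostly that of the muscle receptor.

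Of the 80 members 61 passed the filter on low counts. The 19 below it were 11 GABA-A genes (among them gabra3, gabra4, gabra6b, gabrb1, gabrb2b, gabrb4, gabrg1, gabrg3, gabrr2b and gabrr3a), 6 nicotinic genes (chrna10a, chrna11, chrna7a, chrnb3b, chrnb5a and chrnb5b), the NMDA gene grin3bb and the glycine receptor gene glra4b. Their mean levels reached at most 0.484 TPM. The gene gabrb2b had 0 counts in 6 of the 8 libraries and under 3 in the other two.

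The design sets TCDD against DMSO and so asks which receptor transcripts differ after the exposure. Of the 61 tested members 1 rose, 0 fell and 60 did not pass (edgeR quasi-likelihood test, adjusted p under 0.05 over all 20522 genes tested). That is 1 in 61, while 5.72% of all tested genes were called, 2.99% higher and 2.73% lower. At an unadjusted p under 0.05 there were 1 higher and 4 lower members, while 22.0% of all tested genes had such a p (10.2% higher and 11.7% lower). At an adjusted p under 0.10 it was still 1 member, against 10.1% of all tested genes. DESeq2 also called 1 member, again grik1a, while it called 9.78% of all genes. The groups did not overlap in 2 of the 61 members, grik1a and chrna3, against 14.0% of all tested genes. The median log2 fold change of the 61 was 0.096, with 40 above 0 and 21 below, against a median of 0.000 for all tested genes. Without DMSO 1 the median was -0.022, and without DMSO 2 it was 0.223. With library size alone it was 0.209 while that of all genes was 0.129. Over the members the SE ran from 0.106 to 0.567 on the log2 scale, with a median of 0.241, and a missed threshold does not show that a gene was equal in the groups.

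**Figure D2:**
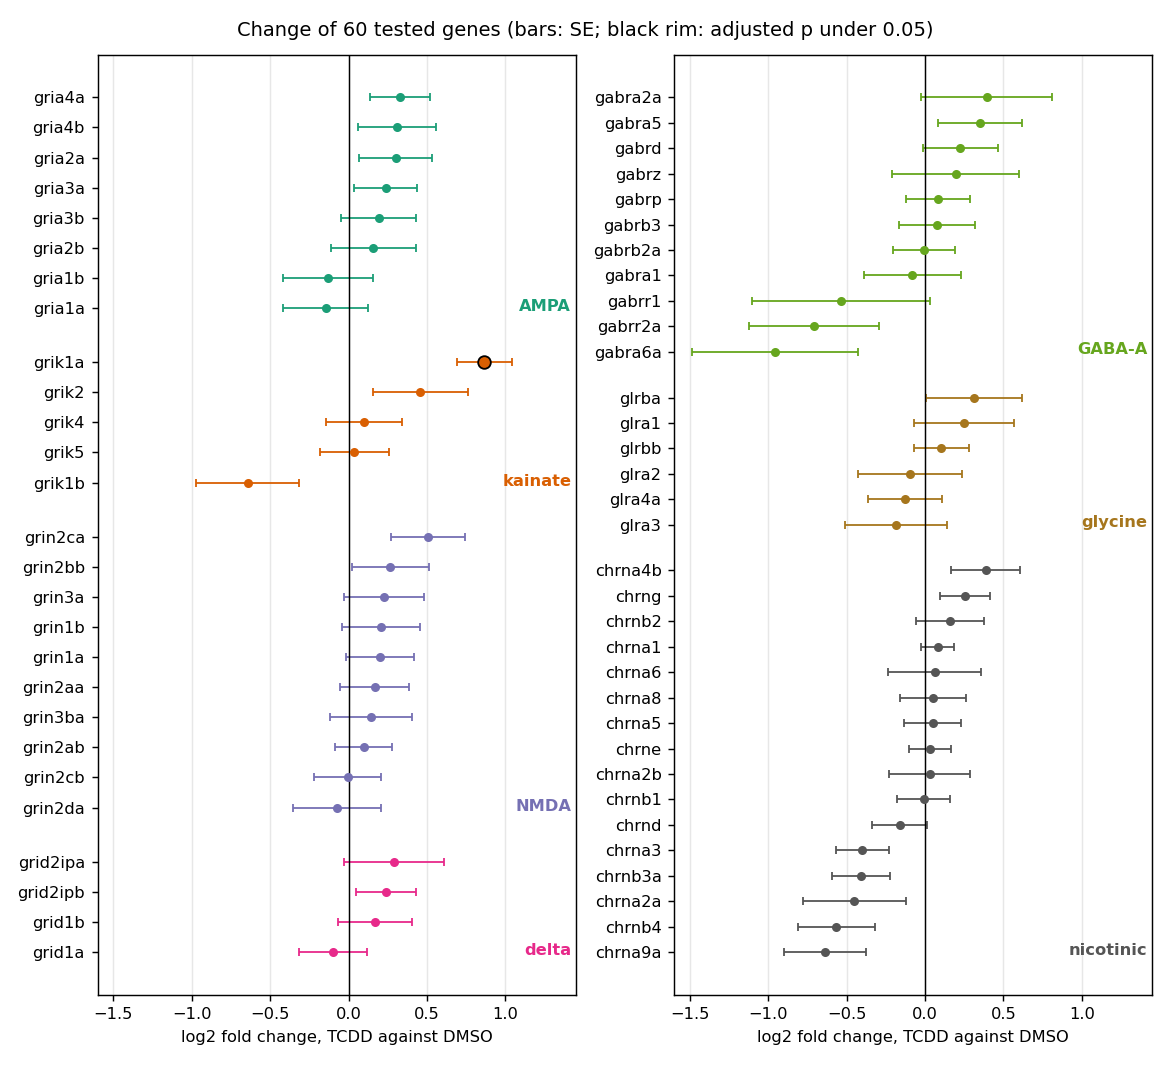
Log2 fold change of TCDD against DMSO (horizontal axis) with its SE for 60 of the 61 tested genes, by family. The point with a black rim, grik1a at 0.87, is the gene with an adjusted p under 0.05, and the AMPA and NMDA points lie close together between -0.15 and 0.51.

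The gene that rose was grik1a (NCBI gene 798001), a kainate receptor subunit gene. Its CPM was 3.755, 6.13, 4.26 and 4.61 in DMSO 1 to 4 and 8.98, 9.49, 8.80 and 7.08 in TCDD 1 to 4. Every TCDD library lay above every DMSO library, and the nearest pair was DMSO 2 and TCDD 4. The mean went from 4.69 ± 1.02 to 8.59 ± 1.05 CPM (SD, n = 4 a group), a 1.82-fold rise (log2 fold change 0.87 ± 0.17 SE, adjusted p = 0.015 by edgeR). The call was lost in edgeR fits without DMSO 3 (adjusted p = 0.0599), without TCDD 2 (0.0533) and with DMSO 1 and TCDD 2 both left out (0.064), where the log2 fold change was 0.82, 0.81 and 0.72. Per 1000 CPM of the neuron markers, grik1a was at 3.02 to 4.07 CPM in DMSO and at 3.89 to 7.32 CPM in TCDD, so that on this scale DMSO 1 lay above TCDD 4.

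The other 4 kainate genes did not pass, while 5.72% of all tested genes were called. The copy grik1b was low, at 0.639, 0.943, 1.26 and 1.33 CPM in DMSO 1 to 4 and at 0.945, 0.485, 0.600 and 0.643 CPM in TCDD 1 to 4. The groups of grik1b overlapped, and its log2 fold change had the opposite sign to that of grik1a (-0.64 ± 0.33, adjusted p = 0.275 by edgeR). The difference between the copies was not tested, and reads of one can be counted at the other. The values of grik2, which encodes a channel-forming subunit (0.46 ± 0.30, adjusted p = 0.406), grik4 (0.10 ± 0.24, adjusted p = 0.854) and grik5 (0.04 ± 0.22, adjusted p = 0.946), the last 2 partner subunits, overlapped between the groups. Within a library the TPM of grik1a was 0.518 to 0.723 of that of grik5 in DMSO and 0.674 to 1.63 of it in TCDD.

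**Figure D3:**
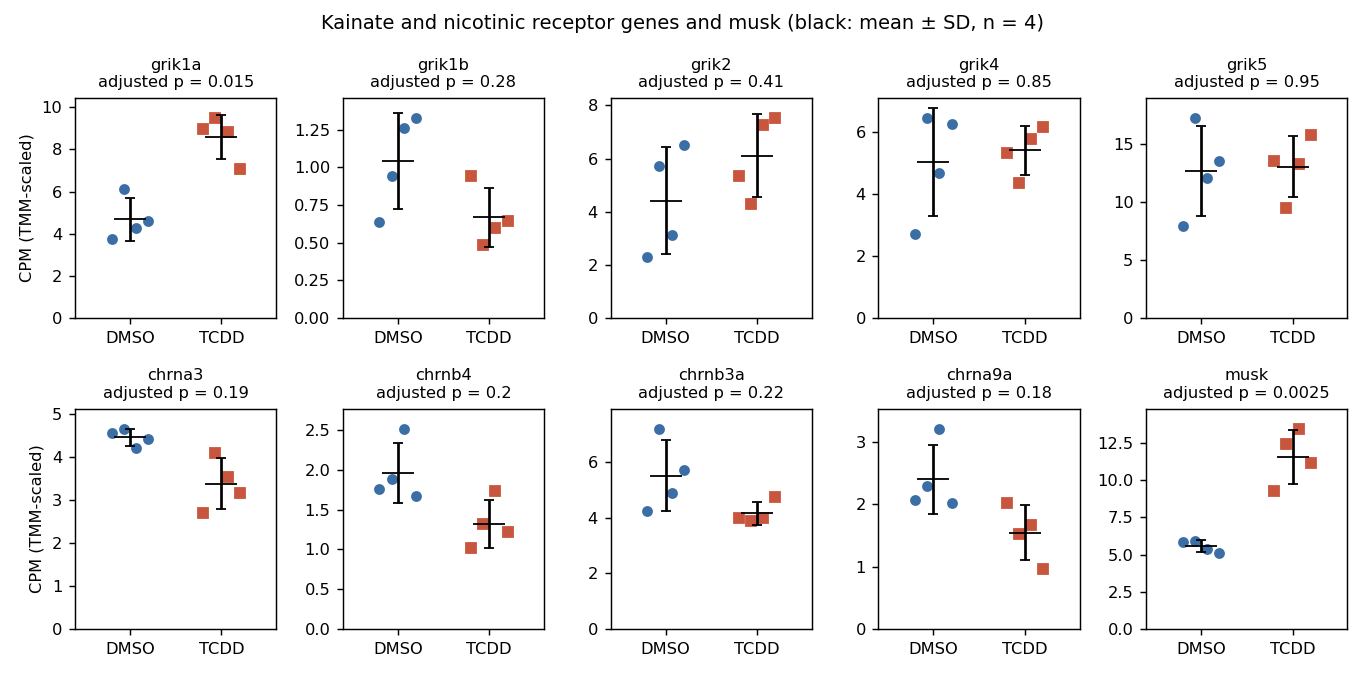
TMM-scaled CPM (vertical axes, each from 0) of the 5 kainate genes, 4 nicotinic genes and musk in the 4 DMSO (circles) and 4 TCDD (squares) libraries, with mean ± SD in black. In grik1a, chrna3 and musk the groups do not overlap, and the adjusted p over each panel is from edgeR.

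The NMDA and AMPA genes with the highest TPM, grin1b and gria2a, overlapped between the groups. The CPM of grin1b was 44.3, 106, 75.0 and 94.2 in DMSO 1 to 4 and 103, 71.6, 76.6 and 118 in TCDD 1 to 4. DMSO 1 was lowest and TCDD 4 highest, with the remaining libraries mixed (log2 fold change 0.21 ± 0.25, adjusted p = 0.677 by edgeR). For gria2a the values were 21.65, 45.7, 33.4 and 46.4 CPM in DMSO and 41.6, 36.9, 41.7 and 61.05 CPM in TCDD. Again DMSO 1 was lowest and TCDD 4 highest (0.30 ± 0.23, adjusted p = 0.485).

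While 5.72% of all tested genes were called, no AMPA gene passed among 8. Their median log2 fold change was 0.215, and 0.039 without DMSO 1, and the smallest p was that of gria4a (15.2 ± 4.64 to 19.1 ± 1.79 CPM; 0.33 ± 0.19, adjusted p = 0.337). Among the 10 tested NMDA genes none passed either, with a median of 0.184 (0.001 without DMSO 1). The smallest p there was that of grin2ca, a GluN2 gene (5.00 ± 1.89 to 7.16 ± 0.772 CPM; 0.51 ± 0.24, adjusted p = 0.234). The 5 delta genes had a median of 0.238 (0.129 without DMSO 1) and 0 calls. Among them grid2ipb had 0.24 ± 0.19 (adjusted p = 0.5085).

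**Figure D4:**
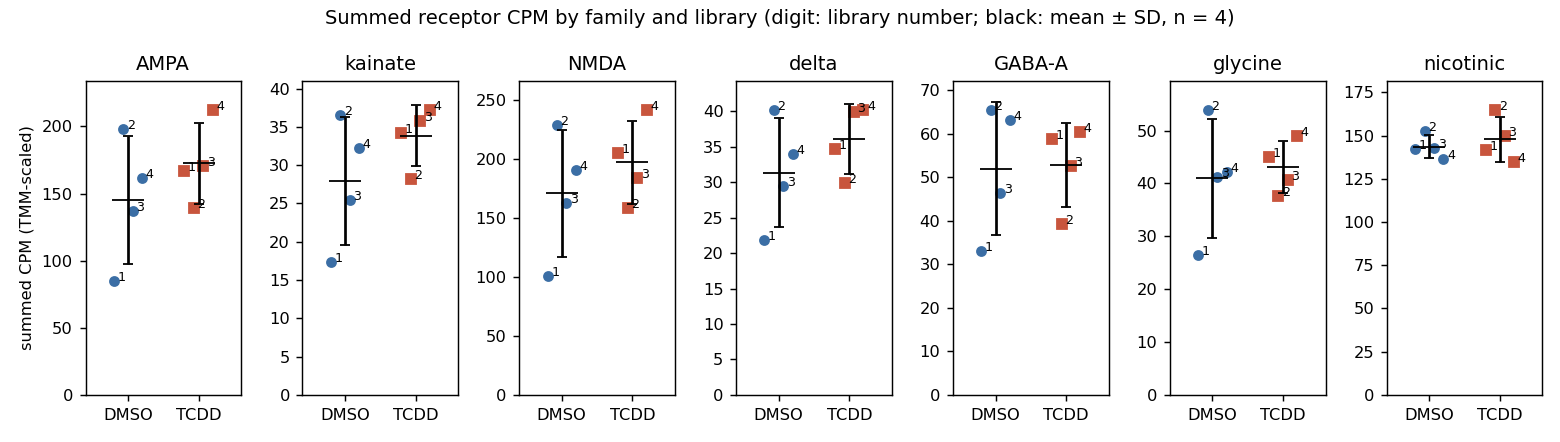
Summed TMM-scaled CPM (vertical axes, each from 0) of the listed members of each family in every library, with the library number beside each point and mean ± SD of 4 in black (delta includes grid2ipa and grid2ipb). DMSO 1 is the lowest point in every family except the nicotinic one, where the 8 libraries lie between 135 and 165 CPM.

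In the summed glutamate receptor genes DMSO 1 was the lowest and DMSO 2 the highest of the DMSO libraries. The 27 ionotropic glutamate receptor genes (AMPA, kainate, NMDA and delta subunits) summed to 213, 484, 340.5 and 404 CPM in DMSO 1 to 4 and to 423, 340.0, 410 and 515 CPM in TCDD 1 to 4. Among the 4 DMSO libraries DMSO 1 was the lowest in 25 of the 26 tested genes of this group, against 31.1% of all tested genes. DMSO 2 was the highest of the 4 in 19 of the 26, against 27.0% of all tested genes. Of the 21 neuron markers DMSO 1 was the lowest DMSO library in 21 and DMSO 2 the highest in 20. These markers summed to 922, 1853, 1329 and 1526 CPM in DMSO 1 to 4 and to 1484, 1296, 1545 and 1817 CPM in TCDD 1 to 4. The share of counts from genes under 1000 bases of implied transcript length was 34.01, 23.68, 28.78 and 29.63% in DMSO 1 to 4. In TCDD 1 to 4 it was 24.98, 24.32, 23.53 and 23.66%. DMSO 1 had the largest share, and of the DMSO libraries only DMSO 2 lay within the TCDD range. An implied length was available for 58 of the 61 tested members, not for grik1b, and for 20073 of the 20522 tested genes. The median length was 2906 bases in these members against 1995 in these genes. With offsets for that length the median log2 fold change of the 58 members was 0.083. The parts of neuron content and of length in the receptor values were not tested, and in bulk RNA fewer cells of a type and less RNA per cell cannot be told apart.

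Set beside the neuron markers, the glutamate receptors varied less. Their summed CPM per 1000 CPM of the neuron markers was 231, 261, 256 and 265 in DMSO 1 to 4 and 285, 262, 265 and 283 in TCDD 1 to 4. The sum itself ran from 213 to 515 CPM over the 8 libraries, whereas this ratio ran from 231 to 285. The groups overlapped on the ratio too, between DMSO 4 and TCDD 2.

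**Figure D5:**
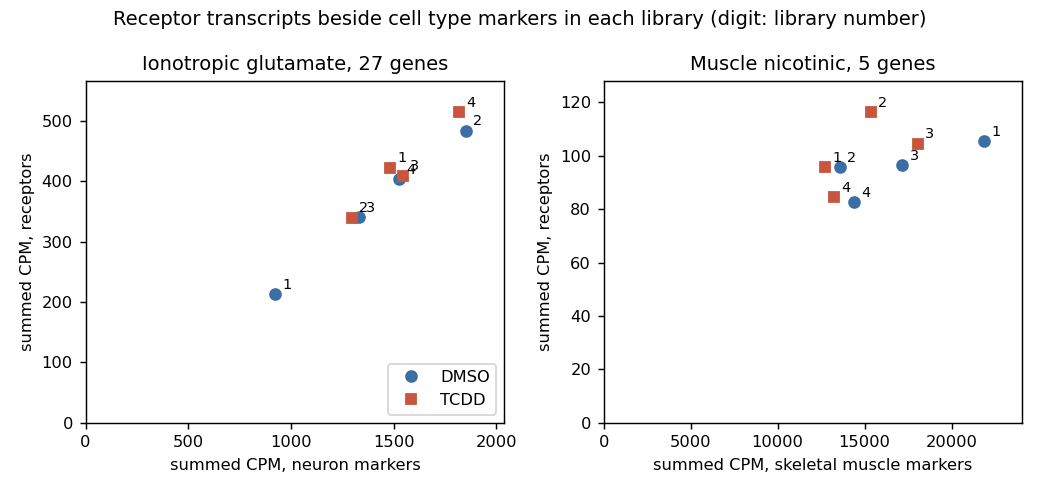
Summed TMM-scaled CPM of the glutamate and muscle nicotinic receptor genes (vertical axes) against that of a marker list (horizontal axes) in the 4 DMSO (circles) and 4 TCDD (squares) libraries, with library numbers. The glutamate receptor sum follows the neuron markers from DMSO 1 (213 and 922 CPM) to TCDD 4 and DMSO 2, and the muscle nicotinic sum stays between 82.7 and 116 CPM.

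In the inhibitory families no gene passed, while 5.72% of all tested genes were called. The glycine receptor gene glrbb was at 18.9, 38.1, 29.8 and 31.85 CPM in DMSO 1 to 4 and at 33.1, 28.1, 31.3 and 35.4 CPM in TCDD 1 to 4. DMSO 1 was lowest and DMSO 2 highest, so the groups overlapped (0.10 ± 0.18, adjusted p = 0.7805 by edgeR). The 6 tested glycine receptor genes had a median of 0.004 (-0.146 without DMSO 1), with values between -0.18 (glra3) and 0.31 (glrba, adjusted p = 0.600 by edgeR). Among the 11 tested GABA-A genes the median was 0.078 (-0.106 without DMSO 1), and 6 were above 0. The leading gabrd had 8.23 ± 2.58 and 9.65 ± 2.45 CPM (0.225 ± 0.24, adjusted p = 0.629), and gabrb2a had 10.8 ± 2.87 and 10.7 ± 1.965 CPM (-0.01 ± 0.20, adjusted p = 0.991).

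The lowest log2 fold changes of the GABA-A family were those of gabra6a, an alpha subunit gene (-0.96 ± 0.53, adjusted p = 0.315), and of gabrr2a (-0.71 ± 0.41, adjusted p = 0.343) and gabrr1 (-0.54 ± 0.57, adjusted p = 0.627). For gabra6a the log2 fold change was -1.79 without TCDD 1 (adjusted p = 0.0664) and -0.556 without DMSO 4 (adjusted p = 0.586), the ends of its range in the edgeR fits without 1 library. The gene gabrr1 was at 1.68, 1.55, 2.10 and 4.96 CPM in DMSO 1 to 4 and at 4.05, 0.485, 1.40 and 1.16 CPM in TCDD 1 to 4. DMSO 4 and TCDD 1 were high and TCDD 2 low, so the groups overlapped. Retina markers went the same way, with a sum of 526, 698.5, 633.5 and 1961 CPM in DMSO 1 to 4 and 922, 37.4, 330.4 and 209 CPM in TCDD 1 to 4. Of the 10 tested retina markers 0 passed, with all 10 log2 fold changes below 0 and a median of -1.225. At an unadjusted p under 0.05, 3 were lower, against 11.7% of all tested genes lower. The groups did not overlap in 3 of the 10 markers, against 14.0% of all tested genes. The smallest p was that of rcvrna, a recoverin gene of photoreceptors (-1.975 ± 0.57, adjusted p = 0.067). The part of retina content in the GABA-A values was not tested.

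On TMM-scaled CPM the muscle nicotinic receptor genes were not lowest in DMSO 1, but on TPM their sum was. It was 40.7 TPM in DMSO 1 and 41.7 to 71.0 TPM in the other libraries. The glutamate receptor sum was 36.5 TPM in DMSO 1 and 77.75 to 152 TPM in the others. On TPM chrna1 (14.9 against 18.05 to 26.4) and chrnb1 were lowest in DMSO 1, and chrng, chrnd and chrne were lowest in DMSO 4. The gene chrna1 was at 39.1, 37.4, 37.1 and 36.0 CPM in DMSO 1 to 4 and at 37.8, 44.2, 42.35 and 33.8 CPM in TCDD 1 to 4. The TCDD libraries lay on both sides of the DMSO libraries, and chrna1 had the smallest SE of all tested members (0.08 ± 0.11, adjusted p = 0.709 by edgeR). The gamma subunit gene chrng, typical of the immature receptor, had 24.8, 25.9, 22.9 and 17.0 CPM in DMSO and 26.5, 33.7, 26.1 and 21.7 CPM in TCDD, with overlap (0.25 ± 0.16, adjusted p = 0.383). The epsilon subunit gene chrne, which takes the place of gamma in mature mammalian muscle, had 16.2, 14.9, 13.9 and 11.45 CPM in DMSO and 12.9, 15.2, 15.7 and 13.8 CPM in TCDD (0.03 ± 0.13, adjusted p = 0.926).

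The TPM of chrng was 1.61 to 2.07 times that of chrne in DMSO and 1.94 to 2.65 times in TCDD, with overlap between the groups. The delta subunit gene chrnd (14.1 ± 2.81 to 12.6 ± 2.52 CPM; -0.16 ± 0.18, adjusted p = 0.638) and the beta subunit gene chrnb1 (6.82 ± 1.125 to 6.77 ± 1.09 CPM; -0.01 ± 0.17, adjusted p = 0.984) did not pass either. The 5 muscle genes summed to 82.7 to 105.5 CPM in DMSO and 84.5 to 116 CPM in TCDD. On this CPM scale DMSO 1 was the lowest of the DMSO libraries in 0 of the 5.

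Among the other 11 tested nicotinic genes 0 passed, against 5.72% of all tested genes. Of these 11, 4 had an unadjusted p under 0.05, all lower in TCDD. They are named for these values and were chosen after these were seen. The share of all tested genes with such a p and a lower level in TCDD was 11.7%. The gene chrna3, whose product is the main alpha subunit of autonomic ganglia, was at 4.55, 4.65, 4.19 and 4.40 CPM in DMSO 1 to 4 and at 2.70, 4.09, 3.535 and 3.15 CPM in TCDD 1 to 4. The groups of chrna3 did not overlap, with DMSO 3 and TCDD 2 close together (-0.40 ± 0.17, adjusted p = 0.191 by edgeR).

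Its usual partner in ganglia is the product of chrnb4, which was at 1.76, 1.89, 2.52 and 1.68 CPM in DMSO and 1.01, 1.32, 1.73 and 1.22 CPM in TCDD, with TCDD 3 above DMSO 4 (-0.57 ± 0.245, adjusted p = 0.202). The third gene of the ganglionic receptor, chrna5, had 8.475 ± 2.13 and 8.79 ± 1.04 CPM (0.05 ± 0.18, adjusted p = 0.906). The beta subunit gene chrnb3a had 5.52 ± 1.28 and 4.16 ± 0.406 CPM (-0.41 ± 0.18, adjusted p = 0.219). The gene chrna9a, whose mammalian counterpart serves hair cells of the inner ear, had 2.40 ± 0.554 and 1.55 ± 0.441 CPM (-0.64 ± 0.26, adjusted p = 0.181). The brain-type subunit genes chrna4b (0.39 ± 0.22, adjusted p = 0.323) and chrnb2 (0.16 ± 0.21, adjusted p = 0.718) were above 0 and did not pass.

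Genes that work with the receptors were described list by list. At the neuromuscular junction musk, which encodes the receptor kinase that gathers nicotinic receptors under the nerve ending, rose from 5.83, 5.93, 5.38 and 5.10 CPM in DMSO 1 to 4 to 9.25, 12.5, 13.5 and 11.1 CPM in TCDD 1 to 4. Every TCDD library was above every DMSO library (log2 fold change 1.06 ± 0.15, adjusted p = 0.0025 by edgeR). The call held under all 18 alternatives run, with an adjusted p of at most 0.0139. Of these, the adjusted p of 0.10 is a looser cut-off on the main fit, which a gene called at 0.05 cannot fail. In that list musk was the 1 called gene among 10, against 2.99% of all tested genes called higher. The median of the list was 0.115, and 0.113 without DMSO 1. At an unadjusted p under 0.05 the list held 3 higher and 0 lower genes, against 10.2% of all tested genes higher, and the groups did not overlap in 3 of the 10, against 14.0% of all tested genes.

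Of 24 tested genes of receptor scaffolds and auxiliary subunits 0 passed (median 0.116, and -0.032 without DMSO 1). The smallest p by edgeR were those of cacng2a, an AMPA receptor auxiliary subunit gene (0.29 ± 0.20, adjusted p = 0.419), and nlgn2a, a neuroligin gene of inhibitory synapses (0.30 ± 0.21, adjusted p = 0.449). At an unadjusted p under 0.05 the count in this list was 0 too, against 22.0% of all tested genes. Among 26 genes of transmitter synthesis, packaging and uptake 0 passed (median 0.058, and -0.116 without DMSO 1). Of them 3 had an unadjusted p under 0.05, all higher in TCDD, against 10.2% of all tested genes higher. The smallest p were those of chata, the acetylcholine-synthesising enzyme gene (5.34 ± 1.61 to 8.10 ± 1.37 CPM, 0.60 ± 0.22, adjusted p = 0.135), and slc17a6b, a vesicular glutamate transporter gene (0.60 ± 0.22, adjusted p = 0.1415).

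Among 17 tested metabotropic receptor genes of the same transmitters 0 passed (median 0.060, and -0.052 without DMSO 1). Of them 1 had an unadjusted p under 0.05. The genes chrm1a (1.285 ± 0.49, adjusted p = 0.152) and grm4 (0.28 ± 0.15, adjusted p = 0.296) had the smallest p by edgeR. Among 9 tested genes of other ligand-gated channels 0 passed (median 0.226, and 0.199 without DMSO 1), and 2 had an unadjusted p under 0.05. The smallest p were those of p2rx3b, an ATP-gated channel gene (0.28 ± 0.11, adjusted p = 0.165), and htr3a, a serotonin-gated channel gene (0.36 ± 0.16, adjusted p = 0.212). In both lists the genes with an unadjusted p under 0.05 were higher in TCDD, against 10.2% of all tested genes higher.

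In the neuron marker list the median was 0.095, and -0.065 without DMSO 1. At an unadjusted p under 0.05, 3 were higher and 0 lower, against 10.2% of all tested genes higher. Of the 21 genes 1 rose, against 2.99% of all tested genes called higher. It was the neurofilament gene nefmb (4.93 ± 1.13 to 10.8 ± 4.28 CPM, 1.12 ± 0.26, adjusted p = 0.030). The call was lost in edgeR fits without DMSO 1 (adjusted p = 0.0703), DMSO 3 (0.0699), DMSO 4 (0.0704), TCDD 2 (0.0695), TCDD 3 (0.0625) or both DMSO 1 and TCDD 2 (0.139). In the glia and myelin list 1 of 11 fell, against 2.73% of all tested genes called lower. It was the myelin basic protein gene mbpa (112 ± 7.74 to 78.25 ± 3.99 CPM, -0.51 ± 0.096, adjusted p = 0.011 by edgeR). The median of the list was -0.283 (-0.438 without DMSO 1). With library size alone the adjusted p of mbpa was 0.0831. In that list 10 of 11 log2 fold changes were below 0, and 5 genes were lower and 0 higher at an unadjusted p under 0.05, against 11.7% of all tested genes lower. Of 18 skeletal muscle markers 0 passed. Their median was -0.278 (-0.071 without DMSO 1 and -0.107 with offsets for implied length). At an unadjusted p under 0.05, 1 was higher and 2 lower, against 10.2% of all tested genes higher and 11.7% lower. The smallest p were those of tnnt3a (-0.41 ± 0.145, adjusted p = 0.122) and myhz1.1 (0.53 ± 0.21, adjusted p = 0.173).

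Of 11 cardiomyocyte markers 3 fell, against 2.73% of all tested genes called lower: tnni4a (-1.34 ± 0.22, adjusted p = 0.0058), myl7 (-0.99 ± 0.22, adjusted p = 0.023) and myh7 (-0.48 ± 0.12, adjusted p = 0.034). The median was -0.462 (-0.32 without DMSO 1 and -0.34 with offsets for implied length). These genes were short, with a median implied length of 817.7 bases against 1995 for tested genes with such a length. The part of length in their fall was not tested. At an unadjusted p under 0.05, 6 were lower and 0 higher, against 11.7% of all tested genes lower. The groups did not overlap in 3 of the 11, against 14.0% of all tested genes. The calls of myl7 and myh7 were lost in some edgeR fits that left out a library, with adjusted p up to 0.0687 for myl7 and up to 0.104 for myh7, and for myh7 with library size alone (0.0901).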

How the data were processed

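Bulk RNA of 8 samples, 4 per group, was sequenced after Trizol extraction and a SMARTER mRNA-Seq library kit, per the labels' protocols. Per the file headers, the authors computed TPM, FPKM and an estimated count for every gene in each library, and the expected counts were deposited without normalization. The submitters' processing notes name Bowtie2 and GRCz11. The quantifier, its annotation and its strand setting: not given in the sources used here.

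Rounded counts went into edgeR 4.0.16 under R 4.3.3 (filterByExpr, TMM, robust quasi-likelihood F-test, two-sided, Benjamini-Hochberg over all 20522 tested genes). The SE is the log2 fold change over the square root of F. The common biological coefficient of variation was 18.3%. Implied length is the count over the FPKM and library size. The procedure was also run on simulated counts with 200 changed genes, drawn without a shift by transcript length. The outcome of that run is not reported here, and no result rests on it. Depth was 14048563 to 15183023 counts per library, and a floor of 3 counts covers counting error only.

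Members and lists were chosen with earlier results of these data known. Of 185 list memberships 177 matched by symbol, 6 by the reference table's symbol through the gene identifier, and 2 were unmatched. Named were called members, the 2 highest by TPM and the smallest p of each family, the muscle nicotinic genes, and up to 4 called or otherwise the 2 smallest p of each list. Other members were named outside this rule, with their values known. Among them are grik1b, grik2, grik4, glra3, gabrr1, gabrr2a, chrna3, chrnb4, chrnb3a, chrna5, chrna4b and chrnb2. Some genes that this rule names, or that belong to the members, are not reported here; they stay in the sums, counts and medians. Lists and families were described by counts and medians and not tested. No coordinates are given, since the gene table is of another assembly. Python 3.11.15, numpy 2.4.6, pandas 2.3.3 and matplotlib 3.10.9 were also used.

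The alternatives were DESeq2 1.42.0, limma-voom (limma 3.58.1), RLE factors, library size alone, no filter, a filter of 1 CPM in 4 samples, offsets from a smooth on implied length (span 0.3), an adjusted p of 0.10, the replicate block, each library left out, and both DMSO 1 and TCDD 2 left out.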

Additional observations from a re-analysis of the deposited data

Results flagged for a closer look

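Of 96 groups of 4 values checked, 5 held a library far from the other 3, and chance gives about 1 in 20 such groups. In DMSO 4 the retina markers summed to 1961 CPM against 526 to 698.5 in the other DMSO libraries. The gene chrnb3a was at 4.76 CPM in TCDD 4 against 3.88 to 4.0 in the other TCDD libraries, so the highest TCDD value lay within the DMSO range. The gene grid2ipb was at 9.39 CPM in TCDD 4 against 13.03 to 13.6. Outside the receptors, mbpa was at 123 CPM in DMSO 4 against 106 to 109, and cyp1a was at 164 CPM in DMSO 1 against 101 to 106.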

How the results depend on the processing

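Among the receptor genes, grik1a was the gene called in every alternative but 3, and none was called lower in any of the 18. The adjusted p of 0.10 is a looser cut-off on the main fit, so grik1a could not fail it. The count of members called higher was 0 to 1 in the fits that left out 1 library and 0 without both DMSO 1 and TCDD 2. The median log2 fold change of the tested members ran from -0.022 to 0.223 in the fits without 1 library.

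Over all genes, 614 were higher and 560 lower in TCDD. Those counts became 939 and 1068 with DESeq2, 995 and 1075 at an adjusted p of 0.10, 937 and 372 with library size alone, and 338 and 278 without both DMSO 1 and TCDD 2. In the fits without 1 library they ran from 294 to 682 and from 229 to 1172.

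Values near 0 changed sign. Without 1 library grik5 ran from -0.132 to 0.21, gria2b from -0.046 to 0.375, gabrb2a from -0.151 to 0.153, glrbb from -0.059 to 0.239, glra4a from -0.263 to 0.096, chrnb1 from -0.097 to 0.081 and chrne from -0.059 to 0.101. With offsets for length they were -0.038 for grik5, 0.073 for chrnb1 and -0.003 for chrne. With library size alone they were 0.105 for gabrb2a and 0.126 for chrnb1. For gabrb2a limma-voom gave 0.010, and without both DMSO 1 and TCDD 2 grik5 was at -0.010 and glrbb at -0.004. The cause of these shifts was not tested.

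The replicate numbers were not taken to pair the samples: deviations of same-numbered libraries from their group means had correlations of -0.293, -0.217, 0.094 and 0.277 for numbers 1 to 4. Over all pairs of a DMSO and a TCDD library they ran from -0.423 (DMSO 4 and TCDD 2) to 0.52 (DMSO 1 and TCDD 2). The cause of the latter was not tested. With the replicate block 657 genes were higher and 690 lower, grik1a was again the 1 member called (0.88, adjusted p = 0.0151), and gabrb2a was at 0.015. The 19 members below the filter were not tested in the main fit, and the cause of their low counts was not tested. With no filter 1 member was called higher and 0 lower.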

Other observations

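Within the NMDA family the balance of the 2 obligatory subunit copies was similar in all libraries: the TPM of grin1b was 1.33, 1.46, 1.48 and 1.53 times that of grin1a in DMSO 1 to 4 and 1.67, 1.44, 1.23 and 1.53 times in TCDD 1 to 4. The total of both copies, in contrast, was lowest in DMSO 1, as was that of the metabotropic receptor genes, which summed to 67.3 CPM there and to 87.65 to 133 CPM in the other 7 libraries. Receptor scaffold and auxiliary subunit genes likewise summed to 245.5 CPM in DMSO 1 and to 317 to 440 CPM elsewhere, and genes of transmitter synthesis, packaging and uptake to 1192 and to 1428 to 2061 CPM.

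Genes of other ligand-gated channels, which include ATP-gated and serotonin-gated receptors, showed a narrower spread. They summed to 53.7, 62.5, 58.2 and 58.9 CPM in DMSO 1 to 4 and to 64.35, 67.2, 65.6 and 60.4 CPM in TCDD 1 to 4, with DMSO 2 above TCDD 4. Neuromuscular junction genes summed to 276 to 360 CPM in DMSO and 310 to 366 CPM in TCDD, and in that list DMSO 1 was the lowest of the DMSO libraries in 1 of 10 genes. The neuronal-type nicotinic genes summed to 34.6, 54.25, 43.0 and 51.3 CPM in DMSO and 43.5, 47.0, 43.4 and 49.0 CPM in TCDD.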
